A study of Mus musculus with 9 samples.

Results

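Voltage-gated sodium and calcium channels were described across 3 groups of mice in ribosome-bound RNA from the dorsal striatum. Members were taken from the protein-coding genes whose mouse symbol starts with Scn followed by a digit, or with Cacna1, Cacna2d or Cacnb followed by a digit. Described here are 30 genes among the 47729 identifiers of the deposited tables: 9 pore-forming sodium channel genes, 3 auxiliary sodium channel genes, 10 pore-forming calcium channel genes, 4 alpha2delta genes and 4 calcium channel beta genes.

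All mice were on a C57BL/6 background, were taken at postnatal day 28 and carried D1-Cre together with RiboTag, an HA-tagged ribosomal protein that Cre switches on. Control mice carried these alleles alone (D1-Cre-RT). Mice of the stereotypy and no stereotypy groups also carried floxed TrkB (D1-Cre-flTrkB-RT), so that Cre deletes TrkB, the receptor for brain-derived neurotrophic factor encoded by Ntrk2, in the same cells. Those 2 groups share a genotype and were separated by whether the animals showed spontaneous repetitive behavior, and each of the 3 groups had 3 libraries. Cre here is driven through the D1 dopamine receptor gene, which marks the direct-pathway medium spiny neurons (MSNs), and the labels call the material enriched for these cells. RNA from before the precipitation was not analysed here, so the enrichment itself was not measured.

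Voltage-gated sodium channels open rapidly on depolarization and carry the rising phase of the action potential, whereas voltage-gated calcium channels turn depolarization into calcium entry that drives transmitter release, dendritic signalling, pacemaking and transcription. In both classes a single large pore-forming protein holds the voltage sensors and the pore, and auxiliary subunits set how many channels reach the membrane and how they gate. MSNs rest at very negative potentials and fire when cortical and thalamic input holds them depolarized, and their sodium and L-type calcium currents are classical targets of D1 receptor signalling.

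Library totals ranged from 27103152 to 40578512 reads, and levels are reads of a gene scaled by its library's total (CPM). Ntrk2 averaged 397 ± 84.8 CPM in the controls (SD, n = 3), 39.6 ± 4.85 with stereotypy and 18.9 ± 4.67 without it. The remaining Ntrk2 RNA thus differed between the TrkB-deleted groups, by 1.05 ± 0.19 (SE) on the log2(CPM + 1) scale (limma adjusted p = 0.0206). Every stereotypy library was above every no stereotypy library. Drd1, which marks the targeted MSNs, measured 866, 865 and 684 CPM in the controls, 864, 841 and 955 with stereotypy and 627, 655 and 515 without it, so that every no stereotypy library was below the other 6. Pdyn, another marker of these MSNs, measured 253, 261 and 153 CPM in the controls and 273, 346 and 286 with stereotypy. Without stereotypy it was at 282, 367 and 298 CPM, above every control. Drd2, which marks the indirect-pathway MSNs, lay between 18.0 and 74.8 CPM. Summed cortical excitatory markers (9 of 9 tested) ranged from 282 to 870 CPM in the controls, 172 to 305 with stereotypy and 608 to 1466 without it, and summed astrocyte markers (12 of 12 tested) from 454 to 561, 645 to 673 and 452 to 567. Among all markers of neuronal and glial classes examined, Rasgrp2 alone was at 0 in every library. In precipitated RNA from tissue, fewer cells of a type and less RNA per cell cannot be told apart. The p-values rest on the spread between biological triplicates, pooled over the 3 groups and moderated by a trend across genes. Each library therefore enters the p-values of every comparison.

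Of the 30 members, 24 reached at least 1 CPM in at least 3 libraries and were tested, and each of the 24 was above 1 CPM in every library. The 6 that did not were Scn4a (skeletal muscle), Scn7a (a sodium-sensing channel of glia and neurons), Scn10a and Scn11a (sensory neurons), Cacna1f (retina) and Cacna1s (skeletal muscle). Their highest levels in any library were 0.295 CPM for Scn4a, 0.271 for Scn7a, 1.10 for Scn10a, 1.09 for Scn11a, 0.0258 for Cacna1f and 0.368 for Cacna1s. The limit left by a count of 0 (3 reads, counting error only) lies between 0.0739 and 0.111 CPM, depending on the library.

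Per kilobase of exon, the most abundant member was Scn4b, the sodium channel beta subunit linked to resurgent current, at 755 ± 78.6 CPM per kb in the controls. Scn2b was at 157 ± 30.2 and Scn3b at 30.2 ± 1.68. Among pore-forming sodium channels, Scn2a (29.3 ± 3.65 CPM per kb) and Scn8a (29.1 ± 0.555) stood together at the top. Scn2a is the channel of unmyelinated axons and young initial segments, and Scn8a that of mature initial segments and nodes of Ranvier. Scn1a, which dominates in fast-spiking interneurons, was at 8.18 ± 0.788, and Scn3a, the channel of fetal and newborn brain, at 5.39 ± 0.888. Scn9a, best known from sensory neurons, was low at 0.139 ± 0.0401.

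Among pore-forming calcium channels, the T-type gene Cacna1i led at 27.6 ± 0.858 CPM per kb in the controls and made up 34.8% of the summed level of its family. T-type channels open near rest and inactivate quickly. A second T-type gene, Cacna1h (12.02 ± 2.11), and the R-type gene Cacna1e (11.7 ± 0.541) were next and did not differ beyond their spread. The N-type and P/Q-type genes Cacna1b and Cacna1a, which serve transmitter release, were at 9.22 ± 0.648 and 8.70 ± 1.48. Of the L-type genes, Cacna1c was at 6.84 ± 0.546 and Cacna1d at 1.74 ± 0.220, and the third T-type gene, Cacna1g, was at 1.65 CPM per kb with a range of 7.89 to 27.8 CPM over the 3 control libraries. The order below Cacna1i depended on the length used, here the union of annotated exons. By the longest transcript, means over all 9 libraries put Cacna1e (17.81 CPM per kb) above Cacna1h (15.46), and Cacna1c (12.88) above Cacna1b (9.744). By the union these means were 10.53, 13.03, 7.998 and 9.542 in the same order.

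Cacna2d3 held 75.0% of the alpha2delta level at 61.7 ± 4.77 CPM per kb, ahead of Cacna2d1 (11.6 ± 3.01), Cacna2d2 (8.94 ± 1.67) and Cacna2d4 (0.171 ± 0.0476). These extracellular subunits raise the number of calcium channels at the membrane. The intracellular beta subunits, which bind the pore-forming subunit and help it leave the endoplasmic reticulum, ordered as Cacnb1 (80.0 ± 10.7 CPM per kb), Cacnb3 (39.2 ± 1.57), Cacnb4 (25.6 ± 1.71) and Cacnb2 (5.48 ± 0.946). Within these families the order changed for a few neighbours in the TrkB-deleted groups. With stereotypy, Cacna1c stood above Cacna1a (9.26 ± 1.43 against 7.75 ± 0.0162 CPM per kb), while Cacna2d2 and Cacna2d1 did not differ beyond their spread (12.5 ± 1.06 and 12.5 ± 1.87). Without stereotypy, Scn8a stood above Scn2a (26.4 ± 1.22 against 22.7 ± 2.87 CPM per kb), Cacna1g above Cacna1d (3.38 ± 1.14 against 1.86 ± 0.170), Cacna2d2 above Cacna2d1 (13.6 ± 1.83 against 9.41 ± 2.11) and Cacna1b, within the spread, above Cacna1e (9.92 ± 0.230 against 9.10 ± 1.27). These changes of order were seen by the union of exons, and levels by group were not computed by the longest transcript. By that length Cacna1e had the higher mean over all 9 libraries (17.81 against 9.744 for Cacna1b).

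**Figure D1:**
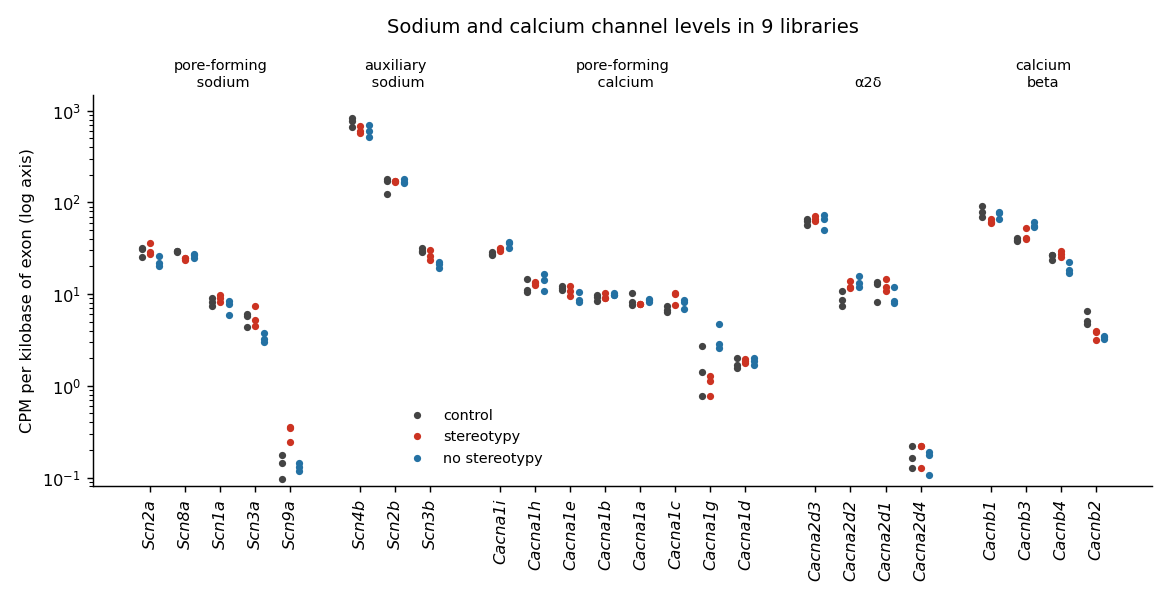
Level of each tested channel gene in CPM per kilobase of exon (vertical axis, log scale) in each of the 9 libraries, by family and group. Scn4b stands highest in every library, and Scn9a and Cacna2d4 lowest.

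Between 2 and 6 of the 24 tested members passed in each comparison, and those that passed in any came from every family. A member that did not pass was not shown to be unchanged. With stereotypy against control, Scn9a rose and Cacnb2 fell, which is 2 of 24 members (8.33%), beside 5.1% of all 13695 genes tested (limma, adjusted p under 0.05). Without stereotypy against control, 6 of 24 members passed (25%), beside 6.77% of all genes: Cacna1i, Cacna2d2 and Cacnb3 rose, and Scn3a, Scn3b and Cacnb2 fell. Markers of the MSNs themselves moved in that comparison too: of 13 tested markers shared by MSNs 4 fell and 0 rose, and 9 D1 MSN markers had a median difference of -0.42 on the log2 scale with 0 past the threshold (6 at an unadjusted p under 0.05; summed level 1902 to 2576 CPM in the controls and 1580 to 1954 without stereotypy). The D1 MSN markers went in both directions there, from -0.78 to 0.53. The part of these 2 marker lists in the falls of members was not tested. Between the 2 TrkB-deleted groups, Scn3a, Scn9a and Cacnb4 were higher and Cacna1g lower with stereotypy, which is 4 of 24 members (16.7%), beside 10.2% of all genes. Of the same markers, 6 of 13 shared by MSNs (46.2%) and 2 of 9 of D1 MSNs (22.2%) were higher there, and 0 lower. Their median differences were 0.28 and 0.49. With both TrkB-deleted groups against control, Cacna2d2 rose and Scn3b and Cacnb2 fell, which is 3 of 24 members (12.5%), beside 5.72%. There 3 of 13 markers shared by MSNs fell (23.1%) and 0 rose, and 0 of 9 D1 MSN markers passed. With stereotypy against control, 1 of the 13 fell (7.69%), 0 rose, and 0 of the 9 passed. The part of these markers in the calls of members was not tested. By direction, the members called higher and lower numbered 1 and 1 with stereotypy against control (3.58% and 1.53% of all genes) and 3 and 3 without stereotypy (3.76% and 3.01%). They numbered 3 and 1 between the TrkB-deleted groups (6.61% and 3.6%) and 1 and 2 for both groups against control (3.67% and 2.05%). In all, 9 of 24 members (37.5%) passed in at least 1 of the 4 comparisons, beside 17.1% of all genes, and 15 in none. These comparisons share samples, so their counts are not independent of each other.

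The median difference of the 24 members was small in each comparison. It was 0.092 with stereotypy against control, -0.051 without stereotypy against control, 0.054 between the TrkB-deleted groups and 0.0047 for both against control, on the log2(CPM + 1) scale. The medians of all tested genes were 0.055, 0.028, 0.018 and 0.040. At an unadjusted p under 0.05, the members passing numbered 7, 11, 9 and 11 in the same order (29.2%, 45.8%, 37.5% and 45.8%), beside 24%, 22.5%, 29.9% and 20.4% of all genes. The split of calls depended on the scaling of the libraries: of all genes called, 70.1% were higher with stereotypy against control, and 52.9% after median-of-ratios rescaling or 49.9% with edgeR. For both groups against control the shares were 64.2%, 52.0% and 46.6%, and without stereotypy against control 55.6%, 47.7% and 45.5%. Under that rescaling the members called higher and lower numbered 1 and 2 with stereotypy, 2 and 4 without it, and 3 and 2 between the TrkB-deleted groups, and no called member changed its direction.

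**Figure D2:**
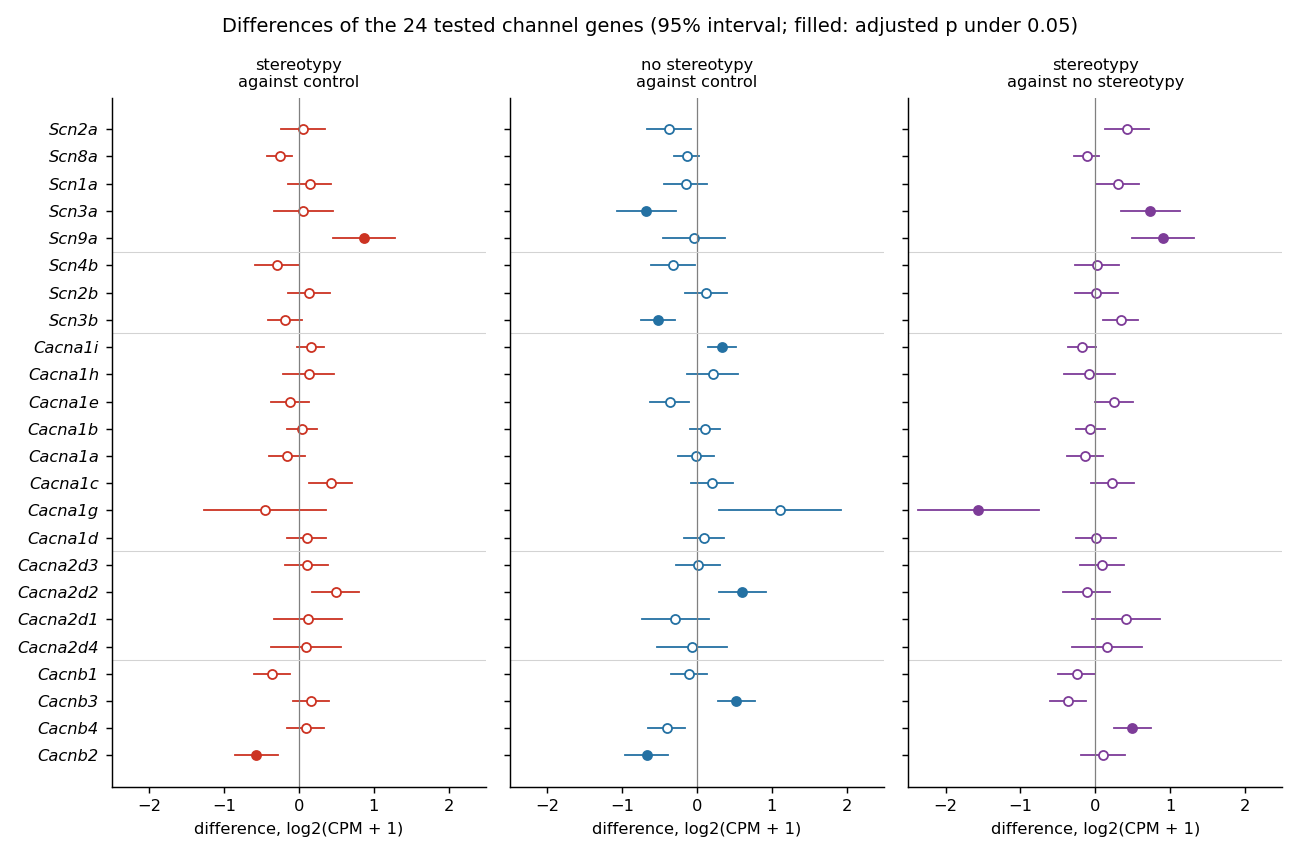
Difference of each of the 24 tested channel genes in the comparisons, on the log2(CPM + 1) scale (horizontal axis), with its 95% confidence interval from limma. Filled points have an adjusted p under 0.05, and the widest intervals are those of Cacna1g.

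**Figure D3:**
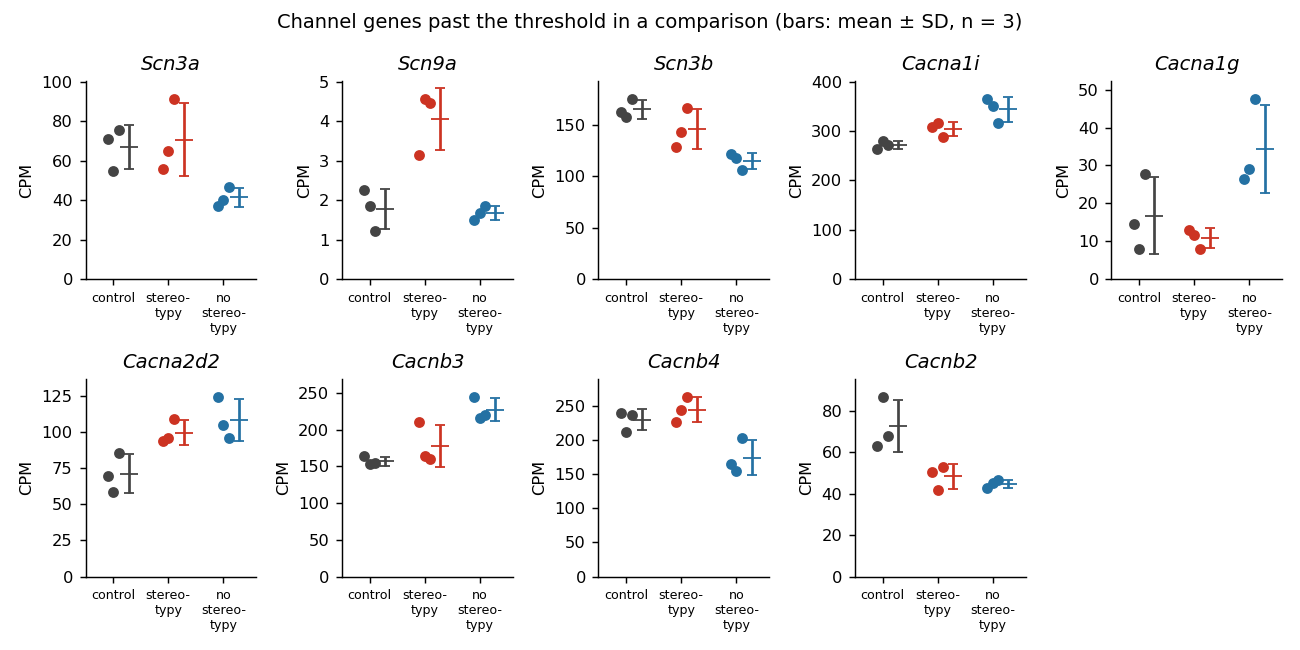
CPM of the 9 channel genes past the threshold in at least 1 comparison, with a point for each library and bars for the mean ± SD of 3 libraries, each panel starting at 0. Cacnb2 in both TrkB-deleted groups lies below every control, and Scn3b is lowest in the no stereotypy group.

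Among the 5 tested pore-forming sodium channels described, Scn9a rose with stereotypy and Scn3a fell without it. Scn9a (ENSMUSG00000075316, GRCm38 chr2:66480080-66634962, minus strand) measured 2.24, 1.84 and 1.23 CPM in the controls, 3.15, 4.56 and 4.46 with stereotypy and 1.50, 1.68 and 1.85 without it. All 3 stereotypy libraries were above the other 6, while the control and no stereotypy libraries overlapped. The log2(CPM + 1) difference was 0.87 ± 0.19 (SE) with stereotypy against control (limma adjusted p = 0.0291), and the stereotypy mean was 229% of the control mean. Against the no stereotypy group the difference was 0.91 ± 0.19 (adjusted p = 0.0240). The first call was lost without control replicates 2 or 3 or stereotypy replicates 2 or 3 (adjusted p of 0.0507, 0.0709, 0.115 and 0.0898), and the second without stereotypy replicates 2 or 3 or no stereotypy replicates 1 or 2 (0.0753, 0.0908, 0.0826 and 0.0722). Scn9a shares 180 exon bases (1.41%) with the antisense gene Gm13629, at 1.25, 1.96 and 2.68 CPM in the control, stereotypy and no stereotypy groups, and strand use in the counting is not given in the sources used here.

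Scn3a (ENSMUSG00000057182, chr2:65457118-65567627, minus strand) measured 71.3, 54.6 and 75.5 CPM in the controls, 56.0, 64.9 and 91.4 with stereotypy and 37.1, 40.1 and 46.9 without it. Every no stereotypy library was below the other 6, and the control and stereotypy ranges overlapped. The no stereotypy mean was 61.6% of the control mean, a log2 difference of -0.68 ± 0.18 (limma adjusted p = 0.0481), and stereotypy exceeded no stereotypy by 0.74 ± 0.18 (adjusted p = 0.0326). With stereotypy against control the difference was 0.06 (95% interval -0.34 to 0.45). The fall without stereotypy was lost without control replicates 1 or 3, stereotypy replicate 2 or no stereotypy replicates 1 or 2 (adjusted p of 0.145, 0.104, 0.0705, 0.174 and 0.128), and the difference between the TrkB-deleted groups without stereotypy replicates 2 or 3 or no stereotypy replicates 1 or 2 (0.0788, 0.115, 0.108 and 0.0932).

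Scn2a, which stood level with Scn8a per kb in the controls, measured 403, 319.8 and 397 CPM in the controls, 362, 350.3 and 455 with stereotypy and 276, 261 and 330.0 without it. Its no stereotypy libraries lay lowest, with 1 of them above the lowest control. The difference was 0.43 ± 0.13 with stereotypy against no stereotypy (limma adjusted p = 0.0640) and -0.37 ± 0.13 without stereotypy against control (adjusted p = 0.133), and neither passed. Scn8a measured 465, 461 and 448 CPM in the controls, 369, 391 and 392 with stereotypy and 395, 431 and 424 without it, so every control was above every TrkB-deleted library. Its difference was -0.25 ± 0.07 with stereotypy (adjusted p = 0.0734) and -0.14 ± 0.07 without (adjusted p = 0.310). Scn1a measured 82.9, 100.4 and 90.4 CPM in the controls, 102, 91.8 and 109 with stereotypy and 66.7, 87.1 and 93.9 without it, with all groups overlapping (adjusted p of 0.534 and 0.544 against control). Scn1a, Scn2a, Scn3a and Scn9a are close paralogs clustered on chromosome 2, so reads that match several of them could have been split or dropped in the authors' counting, which makes their levels uncertain.

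Among auxiliary sodium subunits, Scn3b fell without stereotypy, and Scn2b and Scn4b did not pass in any comparison. Scn3b (ENSMUSG00000049281, chr9:40269217-40291618, plus strand), a non-covalently bound beta subunit, measured 162, 157 and 175 CPM in the controls, 128, 143 and 166 with stereotypy and 121, 117 and 105 without it. Each no stereotypy library was below the other 6, and the stereotypy group overlapped the controls. The no stereotypy mean was 69.5% of the control mean, a log2 difference of -0.52 ± 0.11 (limma adjusted p = 0.0155). That call was kept when any single library was left out, and ended only with the glial and vascular marker covariate (-0.49, adjusted p = 0.0504) among 20 alternatives. For stereotypy against no stereotypy the difference of 0.34 ± 0.11 did not pass (adjusted p = 0.0640). Both groups against control gave -0.35 ± 0.09 (adjusted p = 0.0483). This last Scn3b call was lost without control replicates 1, 2 or 3 (0.112, 0.0696 and 0.132), stereotypy replicates 1 or 2 (0.0860 and 0.107) or no stereotypy replicates 1, 2 or 3 (0.0769, 0.0844 and 0.0713).

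Scn4b measured 3815, 4124 and 3346 CPM in the controls, 3357, 2852 and 2964 with stereotypy and 3014, 3506 and 2576 without it. The highest values were in the controls, and each TrkB-deleted group overlapped them. The difference was -0.30 ± 0.13 with stereotypy (limma adjusted p = 0.202) and -0.32 ± 0.13 without (adjusted p = 0.190), which did not pass. Scn2b, which is disulfide-linked to the pore-forming subunit, measured 789.7, 571 and 832 CPM in the controls, 794, 804 and 773 with stereotypy and 769, 830.0 and 749 without it. Its differences from control were 0.13 and 0.12 (adjusted p of 0.566 and 0.644).

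Among the 8 tested pore-forming calcium channels, 2 T-type genes passed, in different comparisons, and both had their highest mean in the no stereotypy group. Cacna1i (ENSMUSG00000022416, chr15:80287238-80398279, plus strand) measured 264, 281 and 272 CPM in the controls, 308, 317 and 289 with stereotypy and 365, 352 and 316 without it. Every TrkB-deleted library was above every control, and the 2 TrkB-deleted groups overlapped in 1 pair of values. The no stereotypy mean was 126% of the control mean, a log2 difference of 0.34 ± 0.08 (limma adjusted p = 0.0364), while the difference with stereotypy was 0.16 ± 0.08 (adjusted p = 0.264). The call was lost without control replicates 1 or 3, stereotypy replicates 1 or 2, or no stereotypy replicates 1 or 2 (adjusted p of 0.105, 0.0653, 0.0552, 0.0606, 0.162 and 0.126), and after median-of-ratios rescaling (0.0569) or with edgeR (0.0727).

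Cacna1g (ENSMUSG00000020866, chr11:94408391-94474198, minus strand) measured 14.4, 7.89 and 27.8 CPM in the controls, 12.9, 11.5 and 7.90 with stereotypy and 26.3, 28.9 and 47.5 without it. The TrkB-deleted groups did not overlap, and the controls overlapped each of them. Stereotypy against no stereotypy gave -1.56 ± 0.37 (limma adjusted p = 0.0300), the largest difference of any member in any comparison. Against control, the differences of -0.45 with stereotypy (95% interval -1.26 to 0.36) and 1.11 without it (0.30 to 1.92) had adjusted p-values of 0.488 and 0.105. The Cacna1g call was lost without stereotypy replicates 1, 2 or 3 (adjusted p of 0.0504, 0.0788 and 0.119) or no stereotypy replicates 1, 2 or 3 (0.0776, 0.0746 and 0.0630).

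Markers of other neurons were set beside Cacna1g in each library, and no correlation with them was computed. Summed D2 MSN markers (5 of 6 tested) were 443, 629 and 1433 CPM in the controls, 310.0, 424 and 259 with stereotypy and 597, 719.6 and 1050.1 without it. Summed cortical excitatory markers were 477, 282 and 870.1, then 305, 278 and 172, then 648, 608 and 1466 CPM in the same order, and interneuron markers (12 of 12 tested) 332, 232 and 542, then 276, 410.4 and 233, then 437, 355 and 558 CPM. Much of each sum came from a single gene. In no stereotypy replicate 3, Penk gave 671 of the 1050.1 CPM of D2 MSN markers. There Slc17a7 gave 1140 of the 1466 cortical CPM, and Sst 254 of the 558 interneuron CPM. Control replicate 3 was the highest control, and no stereotypy replicate 3 the highest of its group, for Cacna1g and for all 3 lists. Over all tested genes, too, the deviations of these libraries from their group means were correlated (r = 0.406). The order differed elsewhere: interneuron markers were higher in stereotypy replicate 2 (410.4) than in no stereotypy replicate 2 (355), and Cacna1g was lower. With a covariate of these markers, added after the data were seen, the Cacna1g difference between the TrkB-deleted groups was -0.52 (limma adjusted p = 0.111), and 0 of all tested genes passed in that comparison. The covariate was -0.53, -0.37 and -1.10 in the stereotypy libraries and 0.34, 0.24 and 1.34 in the no stereotypy libraries. It thus separated these groups, and the fit cannot tell the markers and the groups apart. Under the same covariate the differences of Scn3a, Scn9a and Cacnb4 were 0.89, 0.74 and 0.63 (adjusted p of 0.0653, 0.102 and 0.0538), beside 0.74, 0.91 and 0.49 without it.

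**Figure D4:**
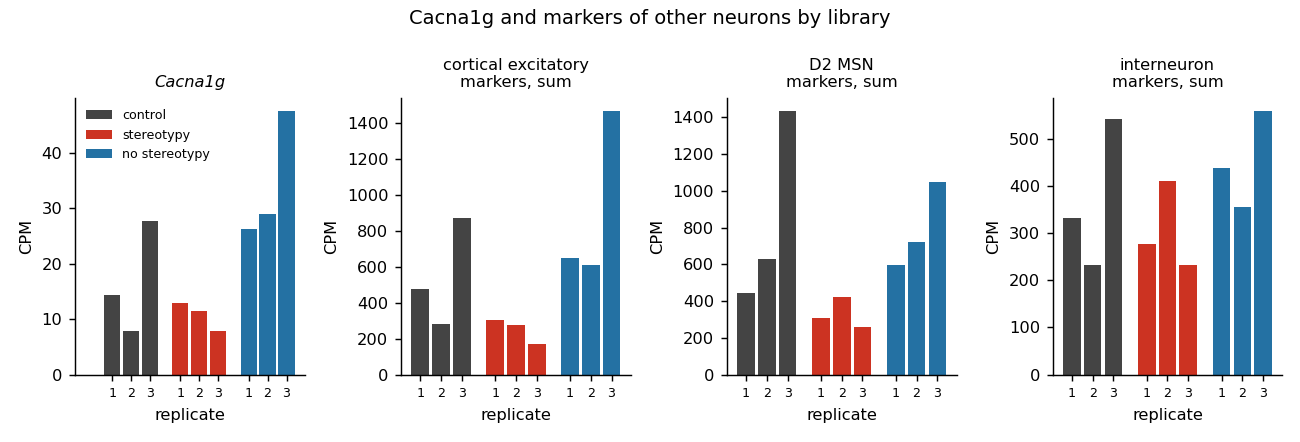
CPM of Cacna1g and summed CPM of D2 MSN, cortical excitatory and interneuron markers in each library, by group and replicate, with axes starting at 0. Control replicate 3 and no stereotypy replicate 3 are the highest of their groups in all panels.

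The other pore-forming calcium channels did not pass in any comparison. Cacna1c measured 136, 158 and 141 CPM in the controls, 161, 210.4 and 217 with stereotypy and 174, 184 and 144 without it, a difference of 0.42 ± 0.13 with stereotypy against control (limma adjusted p = 0.0821) in which the groups did not overlap. Cacna1e measured 281, 295 and 309 CPM in the controls, 239.6, 273 and 305 with stereotypy and 204, 219 and 266 without it. Each no stereotypy library of Cacna1e was below every control, and the difference was -0.37 ± 0.12 (adjusted p = 0.0904). Cacna1h measured 108, 141 and 103 CPM in the controls, 123, 131 and 129 with stereotypy and 163, 141 and 107 without it, with overlapping groups (adjusted p of 0.631 and 0.465 against control). Cacna1a, Cacna1b and Cacna1d stayed within 89.0% to 108% of their control means, and their intervals against control reached at most 0.40 in either direction on the log2 scale (Cacna1a with stereotypy, -0.40 to 0.09).

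Of the alpha2delta genes, Cacna2d2 (ENSMUSG00000010066, chr9:107399612-107529343, plus strand), a gabapentin-binding subunit, rose in the TrkB-deleted mice. It measured 69.4, 58.7 and 85.1 CPM in the controls, 93.6, 95.6 and 109 with stereotypy and 124, 105 and 95.7 without it. Every TrkB-deleted library was above every control, and the TrkB-deleted groups overlapped. The log2 difference was 0.61 ± 0.14 without stereotypy (limma adjusted p = 0.0281), 0.49 ± 0.14 with stereotypy, which did not pass (adjusted p = 0.0678), and 0.55 ± 0.12 for both groups (adjusted p = 0.0264). Stereotypy and no stereotypy differed by -0.11 (95% interval -0.42 to 0.19). The call without stereotypy was lost without control replicates 1 or 2 or no stereotypy replicates 1 or 2 (adjusted p of 0.0845, 0.0610, 0.122 and 0.0732), and that for both groups without control replicates 1 or 2, stereotypy replicates 2 or 3 or no stereotypy replicate 1 (0.0838, 0.0812, 0.0554, 0.0538 and 0.0575).

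Cacna2d3, the most abundant of the family, measured 577, 494 and 543 CPM in the controls, 548, 619 and 568 with stereotypy and 579.8, 637 and 434 without it. Its groups overlapped, and its differences from control were 0.10 (95% interval -0.19 to 0.40) and 0.02 (-0.27 to 0.31). Cacna2d1, the other gabapentin-binding subunit, measured 162, 101 and 169 CPM in the controls, 134, 150.2 and 179.8 with stereotypy and 104, 99.8 and 147 without it, also overlapping (limma adjusted p of 0.744 and 0.452). Cacna2d4, at 1.01 to 2.09 CPM in all libraries, did not pass (0.824 and 0.892).

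The 4 calcium channel beta genes went in different directions, and 3 of them passed in a comparison. Cacnb2 (ENSMUSG00000057914, chr2:14603088-14987908, plus strand), the main beta subunit of heart muscle, measured 63.0, 86.7 and 67.9 CPM in the controls, 50.6, 41.6 and 52.9 with stereotypy and 42.6, 45.3 and 46.5 without it. All 6 TrkB-deleted libraries were below every control, and the TrkB-deleted groups overlapped. The log2 difference was -0.57 ± 0.13 with stereotypy (66.7% of the control mean, limma adjusted p = 0.0360), -0.67 ± 0.13 without it (61.8%, adjusted p = 0.0138) and -0.62 ± 0.11 for both groups (adjusted p = 0.0111). The call for both groups was kept when any single library was left out and ended with the glial and vascular marker covariate (-0.43, adjusted p = 0.365). That covariate was 0.78, 0.94 and 0.35 in the stereotypy libraries. It was -0.44, -0.87 and -0.26 in the controls and 0.12, -0.78 and 0.17 in the no stereotypy libraries. It thus separated the stereotypy group from the others, and the fit cannot tell these markers and that group apart. The call without stereotypy was lost without no stereotypy replicate 1 (0.0652), and that with stereotypy without control replicates 2 or 3 (0.0690 and 0.0595), stereotypy replicates 1, 2 or 3 (0.0741, 0.139 and 0.0653) or no stereotypy replicates 1 or 2 (0.0556 and 0.0567). Cacnb2 shares 618 exon bases (4.67%) with the pseudogene Gm10849, which was at 0.995, 0.558 and 0.751 CPM in the 3 groups.

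Cacnb3 (ENSMUSG00000003352, chr15:98630840-98644529, plus strand), a beta subunit found mainly in neurons and smooth muscle, measured 164, 153 and 154 CPM in the controls, 210.2, 163 and 159.6 with stereotypy and 245, 216 and 219.8 without it. Every no stereotypy library was above the other 6, and the stereotypy group overlapped the controls. The no stereotypy mean was 144% of the control mean, a log2 difference of 0.53 ± 0.11 (limma adjusted p = 0.0177). This call was lost without no stereotypy replicate 1 (adjusted p = 0.0879) and with the glial and vascular marker covariate (0.48, adjusted p = 0.0571). Stereotypy against no stereotypy gave -0.36 ± 0.11 (adjusted p = 0.0596), and both groups against control 0.35 ± 0.10 (0.0590), so neither passed.

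Cacnb4 (ENSMUSG00000017412, chr2:52428320-52676831, minus strand), the beta subunit whose loss causes the lethargic mouse phenotype, measured 239, 212 and 237 CPM in the controls, 226, 244 and 263 with stereotypy and 165, 154 and 203 without it. Each no stereotypy library was below the other 6. Stereotypy exceeded no stereotypy by 0.49 ± 0.11 (limma adjusted p = 0.0270), while the difference of -0.40 ± 0.11 without stereotypy against control did not pass (adjusted p = 0.0556). The call was lost without stereotypy replicates 2 or 3 or no stereotypy replicates 1 or 2 (adjusted p of 0.0796, 0.107, 0.0950 and 0.0924). Cacnb4 shares 1433 exon bases (16.0%) with A430018G15Rik on the opposite strand, which was at 2.74, 3.32 and 1.80 CPM in the control, stereotypy and no stereotypy groups. Cacnb1, the most abundant beta gene, measured 317, 414 and 355 CPM in the controls, 298, 274 and 269.7 with stereotypy and 356, 349 and 299 without it. Its stereotypy libraries were below every control, with a difference of -0.36 ± 0.11 that did not pass (adjusted p = 0.0814).

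Within the family, Cacnb3 made up 26.2% ± 2.47 of the summed beta level per kb in the controls, 32.2% ± 2.99 with stereotypy and 36.9% ± 1.17 without it. The share of Cacnb4 was 17.1% ± 2.06, 20.0% ± 2.56 and 12.7% ± 2.32 in the same order, and that of Cacnb2 3.63% ± 0.412, 2.67% ± 0.317 and 2.21% ± 0.200 (SD, n = 3). The family total was 150.2 ± 8.68 CPM per kb in the controls, 137 ± 8.74 with stereotypy and 153 ± 7.22 without it.

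Among called members, the first listed RefSeq promoter window (GRCm38.p6, 250 bases before the start) holds no annotated exon base for Cacna1i, Cacnb3 and Scn9a, and these 3 are shown as members that rose without stereotypy (Cacna1i, Cacnb3) or with it (Scn9a). The window of Cacnb3 lies within the annotated span of that gene. Capitals mark a CRE core site (TGACG on either strand).
Cacna1i, chr15:80286988-80287237, plus strand: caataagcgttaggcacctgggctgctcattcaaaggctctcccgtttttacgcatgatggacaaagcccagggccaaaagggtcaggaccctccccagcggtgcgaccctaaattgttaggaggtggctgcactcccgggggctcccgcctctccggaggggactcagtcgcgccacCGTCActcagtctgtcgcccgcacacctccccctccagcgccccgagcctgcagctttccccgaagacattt
Cacnb3, chr15:98632078-98632327, plus strand: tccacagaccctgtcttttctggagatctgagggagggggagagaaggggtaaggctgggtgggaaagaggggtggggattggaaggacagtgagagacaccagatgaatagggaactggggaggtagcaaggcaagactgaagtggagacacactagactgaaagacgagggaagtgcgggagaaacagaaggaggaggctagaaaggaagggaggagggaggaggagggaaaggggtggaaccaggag
Scn9a, chr2:66634963-66635212, minus strand: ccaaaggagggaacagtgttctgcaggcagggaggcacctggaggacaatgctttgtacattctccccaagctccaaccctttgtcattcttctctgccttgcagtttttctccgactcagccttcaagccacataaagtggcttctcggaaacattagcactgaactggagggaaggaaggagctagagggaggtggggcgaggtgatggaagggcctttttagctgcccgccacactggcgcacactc
The window of Cacna1i holds 62.4% GC, that of Cacnb3 56.0% and that of Scn9a 54.4%. Cacna1i holds 1 CRE core site, and Cacnb3 and Scn9a hold none of the 5 motifs searched. Over the 34 entries found for 24 of the 30 members, searched on both strands, 0 held the full CRE (TGACGTCA, which contains the core site), 6 the core site (TGACG), 13 a GC box (GGGCGG), 0 an E-box (CACGTG) and 1 an EGR site (GCGTGGGCG). Over all 32851 promoters of the same length the shares were 1.55%, 17.8%, 32.7%, 6.02% and 0.536%. A match describes letters in the window and is not a measured site.

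The direction of the difference between the TrkB-deleted groups followed the GC content of the members. The members higher with stereotypy had transcripts of low GC content, namely Scn3a at 42.1%, Scn9a at 42.4% and Cacnb4 at 40.5%, and Cacna1g, lower with stereotypy, was at 58.1%. Over the 24 members, Spearman's rho between the GC content and the difference of stereotypy against no stereotypy was -0.870, and over 13655 tested genes it was -0.569. For no stereotypy against control rho was 0.730 over the members and 0.321 over all genes, and for stereotypy against control 0.050 and -0.314. These are correlations across genes of the same libraries, and genes are not independent replicates.

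Once a loess curve over transcript GC content and length had been subtracted within each library, rho was -0.363 over the members. The differences between the TrkB-deleted groups were then 0.39 for Scn3a, 0.56 for Scn9a, 0.11 for Cacnb4 and -1.43 for Cacna1g (limma adjusted p of 0.149, 0.141, 0.460 and 0.0892), and 15 of all tested genes passed. Against control without stereotypy, Cacnb2 was then at -0.50 (adjusted p = 0.121), Cacna2d2 at 0.44 (0.0861) and Cacna1i at 0.15 (0.284), while Scn3a, Scn3b and Cacnb3 still passed. Against control with stereotypy, Scn9a was at 0.64 (0.0767), and Cacnb2 still passed.

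**Figure D5:**
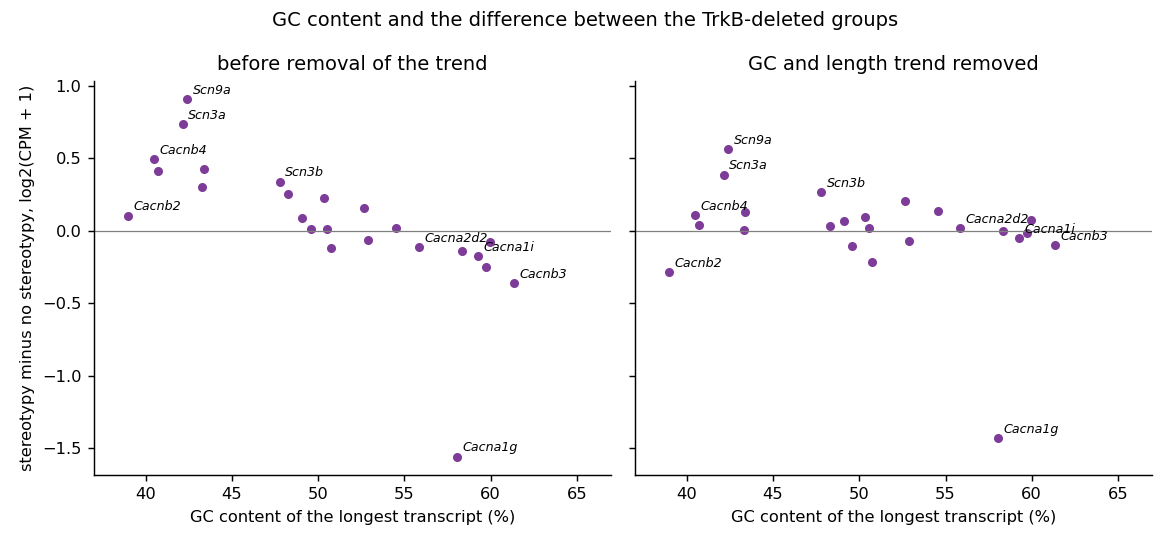
GC content of the longest transcript (horizontal axis, percent) against the difference of stereotypy minus no stereotypy on the log2(CPM + 1) scale, for the 24 tested channel genes, before and after removal of a GC and length trend. Before removal the points fall from upper left to lower right (rho = -0.870), and after it they lie closer to 0 (rho = -0.363).

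Genes whose products bind or place sodium channels were taken from a list of 17, of which 15 were tested. With stereotypy against control 2 rose and 0 fell, without stereotypy 2 rose and 2 fell, between the TrkB-deleted groups 2 were higher (Ank3 and Fgf14) and 0 lower with stereotypy, and for both groups 1 rose and 1 fell (Nedd4 and Fgf11). These calls are 13.3%, 26.7%, 13.3% and 13.3% of the list, beside 5.1%, 6.77%, 10.2% and 5.72% of all genes. The list medians were 0.15, -0.0041, 0.13 and 0.12 on the log2 scale. Fgf11, a fibroblast growth factor homologous factor that binds the sodium channel tail, fell from 43.0, 50.3 and 42.9 CPM in the controls to 29.8, 26.6 and 19.7 without stereotypy, with no overlap (-0.83 ± 0.16, limma adjusted p = 0.0116), and that call was kept under all 20 alternatives. Nedd4, a ubiquitin ligase, rose from 528, 449 and 517 CPM to 644, 675 and 709 with stereotypy and 624, 608 and 635 without it (0.38 ± 0.07 for both groups, adjusted p = 0.0150). Its call for both groups was kept when any single library was left out, that with stereotypy (0.44, adjusted p = 0.0207) was lost without stereotypy replicates 2 or 3 (0.0884 and 0.0736), and that without stereotypy (0.32, adjusted p = 0.0494) was lost when any single library was left out (0.0592 to 0.159).

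Ank3, which encodes ankyrin-G, the anchor of sodium channels at the initial segment, measured 503, 448 and 459 CPM in the controls, 689.9, 561 and 609.5 with stereotypy and 442, 492 and 471 without it. Its rise with stereotypy (0.40 ± 0.10, limma adjusted p = 0.0406) was lost without control replicates 2 or 3 (0.0851 and 0.0879), stereotypy replicates 1, 2 or 3 (0.112, 0.0771 and 0.101) or no stereotypy replicates 1 or 2 (0.0612 and 0.0627). Fgf14, of the same family as Fgf11, was at 62.2, 54.1 and 56.9 CPM in the controls, 55.7, 57.9 and 65.9 with stereotypy and 42.6, 43.0 and 46.8 without it, so its no stereotypy libraries lay below the rest. Its difference without stereotypy against control (-0.38, adjusted p = 0.0449) was lost without any library but control replicate 2 or stereotypy replicate 3 (0.0502 to 0.166). The difference of Fgf14 between the TrkB-deleted groups (0.43, adjusted p = 0.0285) was lost without stereotypy replicates 2 or 3 or no stereotypy replicates 1 or 2 (0.0772 to 0.111), and was 0.099 with the GC and length trend removed (0.598). Fam155a, a subunit of the sodium leak channel, was at 33.1, 23.9 and 45.5 CPM in the controls and 61.1, 59.7 and 84.3 without stereotypy (1.01 ± 0.22, adjusted p = 0.0205), a call lost without control replicate 1 (0.0645) or no stereotypy replicates 1 or 3 (0.0569 and 0.0559).

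Of 28 listed genes whose products bind or regulate calcium channels, 20 were tested. Cachd1, an alpha2delta-like protein that modulates calcium channels, measured 4.22, 6.25 and 5.55 CPM in the controls, 10.3, 16.0 and 13.7 with stereotypy and 19.6, 12.8 and 13.0 without it, so that every TrkB-deleted library was above every control. The log2(CPM + 1) difference was 1.17 ± 0.21 with stereotypy (limma adjusted p = 0.0134) and 1.34 ± 0.21 without it (adjusted p = 0.00500, kept under all 20 alternatives). The rise of Cachd1 with stereotypy was lost without stereotypy replicates 2 or 3 (0.0730 and 0.0513). Cacng3, named for its kinship to a calcium channel subunit and known for carrying AMPA receptors, measured 94.7, 127 and 143 CPM in the controls, 63.7, 59.8 and 81.7 with stereotypy and 71.5, 65.8 and 58.3 without it. It fell by 0.87 on the log2 scale without stereotypy (adjusted p = 0.0107, kept under all 20 alternatives) and by 0.81 with it (0.0213), the latter call lost without control replicate 3 (0.0546) or stereotypy replicates 1 or 2 (0.0685 and 0.0970).

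Cbarp, which binds beta subunits and lowers calcium channel activity, fell with stereotypy from 288, 325 and 368 CPM in the controls to 216, 213 and 207 (-0.62 ± 0.09, limma adjusted p = 0.00745), and was at 283, 302 and 281 without stereotypy. That Cbarp call was kept when any single library was left out and ended only with the glial and vascular marker covariate, under which the difference was -0.59 (adjusted p = 0.278). This covariate was higher in every stereotypy library than in every control, so the fit cannot tell the markers and the groups apart. In the whole list 1 gene rose and 2 fell with stereotypy, 1 rose and 1 fell without it, 1 was higher and 3 were lower with stereotypy than without, and 1 rose and 3 fell for both groups. These are 15%, 10%, 20% and 20% of the list, beside 5.1%, 6.77%, 10.2% and 5.72% of all genes. Cacng2, of the same family as Cacng3, fell for both groups by 0.37 (adjusted p = 0.0398), a call lost without any library but control replicate 2 (0.0511 to 0.103). The calls between the TrkB-deleted groups were Ppp3ca, the catalytic subunit of calcineurin (0.54, adjusted p = 0.0366), and, lower with stereotypy, Stac2 (-1.15, 0.0335), the calcium-binding protein gene Cabp1 (-0.63, 0.0253) and Cbarp (-0.44, 0.0249). Each of these 4 was lost without stereotypy replicates 2 or 3 or no stereotypy replicates 1 or 2 (0.0681 to 0.126), and Ppp3ca and Stac2 also without stereotypy replicate 1 or no stereotypy replicate 3 (0.0659 to 0.0819). Stac2 measured 11.9, 13.2 and 27.96 CPM in the controls, 12.5, 13.3 and 10.995 with stereotypy and 22.5, 25.7 and 39.3 without it, so that control replicate 3 and no stereotypy replicate 3 were the highest of their groups, as for Cacna1g, and with the other-neuron marker covariate its difference was -0.40 (0.206). With the GC and length trend removed, Cbarp was at -0.16 in this comparison (0.320). The medians of the list were -0.02, -0.03, -0.01 and -0.07.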

How the data were processed

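RNA precipitated with HA-tagged ribosomes was sequenced in 9 libraries, and the authors deposited CPM values per Ensembl gene. Alignment was with TopHat to GRCm38, per the submitters' processing notes. Which counter, annotation and strand setting followed is not given in the sources used here. Whole reads were recovered, since 100% of values in each library were multiples of 1 read within 0.1 reads. Of 47729 identifiers, 47224 matched GENCODE M21 (GRCm38); the authors may have used another release. The filter kept 13695 genes that reached 1 CPM in 3 or more libraries. On the log2(CPM + 1) scale, where changes of low genes come out too small, limma 3.58.1 (R 4.3.3) fitted group means to all libraries with a trended prior variance, leaving 6 degrees of freedom. Adjustment (Benjamini-Hochberg, threshold 0.05) covered every gene tested. Levels per kb divide by the union of annotated exons. Glial and vascular markers, or D2 MSN, cortical and interneuron markers, entered as covariates in alternatives, and edgeR 4.0.16 (quasi-likelihood) and DESeq2 1.42.0 used the recovered reads. No pair of libraries agreed within sampling noise (lowest chi-square per degree of freedom 14.5).

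Members found by the rule are described, with values in each library for members past the threshold in a comparison and for the 3 most abundant per family. Genes outside the family are named only from 3 partner lists and past the threshold, at most 4 per list and comparison, with Ntrk2 as the check of the deletion and markers of the cell classes. A total of 2 genes of the rule and a partner gene are not reported here and enter no count of members, while all genes entered the fit. The members and lists were chosen with earlier results of these data known. On simulated reads for stereotypy against control (13695 genes), recovery by limma was 24.6% at 1.5-fold, 75.0% at 2-fold and 82.5% at 3-fold, with 7.69% of calls on unchanged genes.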

Additional observations from a re-analysis of the deposited data

Results flagged for a closer look

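For 4 members the change against control differed between the TrkB-deleted groups by the test of stereotypy against no stereotypy in limma. The change of Cacna1g was lower with stereotypy, by -1.56 on the log2 scale (adjusted p = 0.0300). The change of Scn3a was higher by 0.74 (0.0326), that of Scn9a by 0.91 (0.0240) and that of Cacnb4 by 0.49 (0.0270). All 4 calls were lost when stereotypy replicate 2 or 3 or no stereotypy replicate 1 or 2 was left out, with adjusted p-values from 0.0722 to 0.119. In those fits at most 1 of all tested genes passed in this comparison. With the other-neuron (D2 MSN, cortical, interneuron) marker covariate no member passed. Cacna1g was then at -0.52 (adjusted p = 0.111), Scn3a at 0.89, Scn9a at 0.74 and Cacnb4 at 0.63 (0.0653, 0.102 and 0.0538). That covariate was lower in every stereotypy library than in every no stereotypy library, so the fit cannot tell the markers and the groups apart. With the GC and length trend removed no member passed either, with Cacna1g at -1.43, Scn3a at 0.39, Scn9a at 0.56 and Cacnb4 at 0.11.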

How the results depend on the processing

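No called member changed sign under any of 20 alternatives (19 for Scn9a, which a mean of at least 5 CPM leaves out), and 15 members never passed in the main comparisons. Members called numbered 2 for stereotypy and 6 for no stereotypy, each against control, 4 between the TrkB-deleted groups and 3 for both of these against control, and this order is kept here. Without a filter on low levels they were 0, 3, 0 and 1; with the glial and vascular marker covariate 0, 1, 1 and 0; with the other-neuron marker covariate, added after the data were seen, 4, 8, 0 and 4; with the GC and length trend removed 3, 4, 0 and 7; and with DESeq2 4, 8, 6 and 6. With a mean of at least 5 CPM they were 1, 6, 3 and 3, with median-of-ratios rescaling 3, 6, 5 and 3, and with edgeR 2, 6, 4 and 2. Leaving out each library gave 0 to 3, 1 to 8, 0 to 5 and 1 to 3. The glial and vascular covariate was higher in every stereotypy library than in any other library. Its fit therefore cannot tell these markers and the stereotypy group apart. Where 0 members passed, the cause was not tested, and 9 members (37.5%, beside 29.9% of all genes) had an unadjusted p under 0.05 in the main comparison of the TrkB-deleted groups. With no filter, more genes share the adjustment. Of all genes, 1398 passed in that comparison, 572 without a filter, 305 with the glial covariate, 0 with the other-neuron covariate, 15 with the trend removed and 2343 with DESeq2. Of all genes, DESeq2 called 1522, 1509 and 1326 in the other comparisons, against 699, 927 and 784; without a filter there were 330, 484 and 392 calls, and with the glial covariate 4, 500 and 57. Among members not called, 5, 4, 3 and 6 passed under at least 1 alternative. The labels number replicates 1 to 3 in each group and say only biological triplicates, so the main test held no replicate block. Of 9 pairs with the same number, 4 had deviations correlated above 0.1 (range -0.0798 to 0.406). Other pairs ranged from -0.422 to 0.247. The highest values of all were those of control and no stereotypy replicates 3 (0.406) and 2 (0.344). In both other groups, 3 libraries correlated best with their own number. Whether the numbers pair samples was not settled. With a replicate block, members called were 2, 9, 6 and 3 and genes called 917, 1099, 1788 and 880; for both groups against control Scn3b was then lost (-0.35, adjusted p = 0.0580) and Cacnb3 passed (0.35, 0.0262), and every other call was kept. Reads limit the lowest members: 3 reads are 0.0739 to 0.111 CPM.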

Other observations

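Genes of intracellular calcium release, entry and removal were examined beside the channels (19 of 19 tested). With stereotypy against control 2 rose and 0 fell, without stereotypy 1 rose and 1 fell, between the TrkB-deleted groups 3 were higher (Ryr1, Ryr3 and Atp2b1) and 0 lower with stereotypy, and for both groups 1 rose and 1 fell. These are 10.5%, 10.5%, 15.8% and 10.5% of the list, beside 5.1%, 6.77%, 10.2% and 5.72% of all genes. The medians were 0.05, 0.01, -0.0039 and 0.07 on the log2 scale.

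Slc8a3, a sodium-calcium exchanger, measured 87.0, 69.8 and 79.4 CPM in the controls, 124, 108 and 129 with stereotypy and 129.9, 121 and 105 without it. Every TrkB-deleted library was above every control (0.59 ± 0.10 for both groups, limma adjusted p = 0.00739). Ryr1, a ryanodine receptor of calcium stores, measured 32.8, 14.4 and 26.6 CPM in the controls, 16.6, 16.0 and 14.8 with stereotypy and 8.37, 9.41 and 6.16 without it. It fell without stereotypy by 1.45 (adjusted p = 0.00839), a call kept under all 20 alternatives. Ryr3 measured 84.0, 83.0 and 72.3 CPM in the controls, 107, 103 and 105 with stereotypy and 63.1, 74.3 and 62.5 without it, so the TrkB-deleted groups lay on either side of most controls (0.66 ± 0.10 between them, adjusted p = 0.0154). That Ryr3 call was lost without stereotypy replicates 2 or 3 (0.0579 and 0.0748) or no stereotypy replicates 1 or 2 (0.0610 and 0.0561). Atp2b1, a plasma membrane calcium pump, was higher with stereotypy (3647, 3503 and 3789.6 CPM) than without it (2549, 2472 and 2428 CPM), by 0.55 ± 0.10 (adjusted p = 0.0206), a call lost without the same 4 libraries (0.0609, 0.0825, 0.0716 and 0.0678), and the difference was 0.25 with the GC and length trend removed (0.258).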
